A study of Mus musculus with 6 samples.

Results

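The genes described here are the Notch receptors Notch1, Notch2 and Notch3, the ligands Jag1, Jag2 and Dll4, and the transcriptional targets Hes1, Hey1, Hey2 and Heyl. They were taken by symbol and Ensembl identifier, and make up 10 of the 52636 genes in the count table of whole mouse thoracic aorta. The rule used no values, but the genes were chosen with earlier results of these data known. All 10 had enough reads for an adjusted p-value. Notch receptors are single-pass membrane proteins that bind Jagged and Delta-like ligands on neighbouring cells. Ligand binding leads to cleavage of the receptor by ADAM proteases and then by γ-secretase, and the freed intracellular domain joins the DNA-binding protein RBPJ and Mastermind-like coactivators to switch on genes of the Hes and Hey families, which encode transcriptional repressors. In arteries, Notch3 and Jagged1 are known for their part in the differentiation of smooth muscle cells (SMCs), Notch1, Notch4 and Dll4 for their part in endothelium, and Heyl as a gene that responds to NOTCH3.

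Bulk RNA was sequenced from 6 thoracic aortas of mice 12 weeks of age, of which 4 were from C57BL/6J mice without treatment (WT). The other 2 were from mice (KO) that combined loxP-flanked alleles of both TGF-β receptor genes (Tgfbr1f/f and Tgfbr2f/f) with Myh11-CreERT2, a tamoxifen-inducible Cre recombinase driven by an SMC gene, and mT/mG, a membrane-targeted fluorescent reporter that changes colour after recombination. Starting at 11 weeks of age, KO mice had 5 daily intraperitoneal doses of 2 mg tamoxifen to activate the recombinase, whereas WT mice had no Cre, no loxP-flanked allele, no reporter and no tamoxifen. The effect of receptor loss and those of tamoxifen, Cre and strain therefore cannot be told apart in this comparison. No Notch gene was itself targeted, and cells that do not express Myh11 should keep their TGF-β receptor genes. Columns of the table carry codes and were matched to libraries from the form of the codes, so the 2 KO-labelled libraries, KO-1 and KO-2, are named by these labels throughout. Nothing in the sources used here ties a number shared by a WT and a KO library to a shared litter or batch. The p-values set the difference between groups against the variation among these libraries only, which DESeq2 estimates partly from other genes.

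Total estimated counts ran from 19650983 to 28860598 per library. Mitochondrial transcripts made up 2.62% to 4.44% of a WT library, 3.38% of KO-1 and 11.7% of KO-2. Normalised counts of Tgfbr1 were 3858 to 5420 in WT and 5780 and 4568 in the KO libraries, and those of Tgfbr2 were 5327 to 7042 in WT and 5784 and 5937 in the KO libraries. Whole-gene counts include exons that Cre leaves in place and transcripts of other cells, and so say nothing on whether the KO label is right. The 9 SMC markers summed to 912600 to 1072000 normalised counts in WT and to 873700 and 1028000 in the KO libraries with none of them at 0. In whole tissue, fewer cells of a type and less RNA per cell cannot be told apart, for every gene below.

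Promoter sequence was read for 7 of the 10 genes from RefSeq (mouse build GRCm38.p6), and 250 bases before the annotated start were searched on both strands for the letters TGGGAA (reverse TTCCCA), the core that RBPJ binds, and CAGAC (reverse GTCTG), which holds the core letters bound by Smad proteins downstream of TGF-β receptors. No entry was used for Hes1, Hey1 and Heyl. The letters TGGGAA were found in 1 of the 7 genes, Hey2, and in 21.6% of 32851 promoters of the same length. The letters CAGAC were found in 3 of the 7, Notch3, Jag1 and Dll4, and in 42.2% of all promoters. The stretches below show the match in Hey2, the Notch3 stretch with 2 matches, and the promoter of Rbpj itself, whose transcript changed. The matched letters are in capitals, each sequence runs 5′ to 3′ along the gene's strand, and a match is a description of letters, not a site. The Hey2 stretch lies at chr10:30842955-30843020 (minus strand, 237 to 172 bases before the start), with its match beginning 207 bases before the start. The Notch3 stretch lies at chr17:32166989-32167072 (minus strand, 182 to 99 bases before the start), with matches at 152 and 133 bases. The Rbpj stretch lies at chr5:53590167-53590316 (plus strand, 179 to 30 bases before a listed start), with matches at 149 and 65 bases.
Hey2: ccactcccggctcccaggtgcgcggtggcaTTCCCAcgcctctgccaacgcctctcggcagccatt
Notch3: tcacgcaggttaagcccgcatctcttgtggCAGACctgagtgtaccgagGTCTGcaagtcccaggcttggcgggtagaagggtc
Rbpj: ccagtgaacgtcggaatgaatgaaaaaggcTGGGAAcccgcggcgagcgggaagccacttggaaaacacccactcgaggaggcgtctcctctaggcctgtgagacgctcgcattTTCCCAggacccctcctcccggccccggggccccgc

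Heyl fell and Notch1 rose in the KO libraries, and the other 8 genes did not pass the test. Heyl, the most abundant target in WT, dropped to 36.1% of its WT level in these libraries, and Notch1 stood at 156% of it. The test was DESeq2's Wald test on all genes, and a gene was called where its p-value, adjusted by Benjamini-Hochberg, was under 0.05. It called 2 of the 10 genes, 1 higher and 1 lower, beside 1775 of 17070 genes tested (10.4%), of which 974 were higher (5.71%) and 801 lower (4.69%). With the 2-fold threshold added, only Heyl was called among the 10, beside 962 of all genes (5.64%). The median log2 fold change was -0.05 over the 10 genes and 0.01 over all genes tested. In 6 of the 10 genes both KO libraries were outside the span of the WT values, 3 above and 3 below, a pattern found in 5850 (34.3%) of all genes tested. The plot of normalised counts shows every library.

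**Figure D1:**
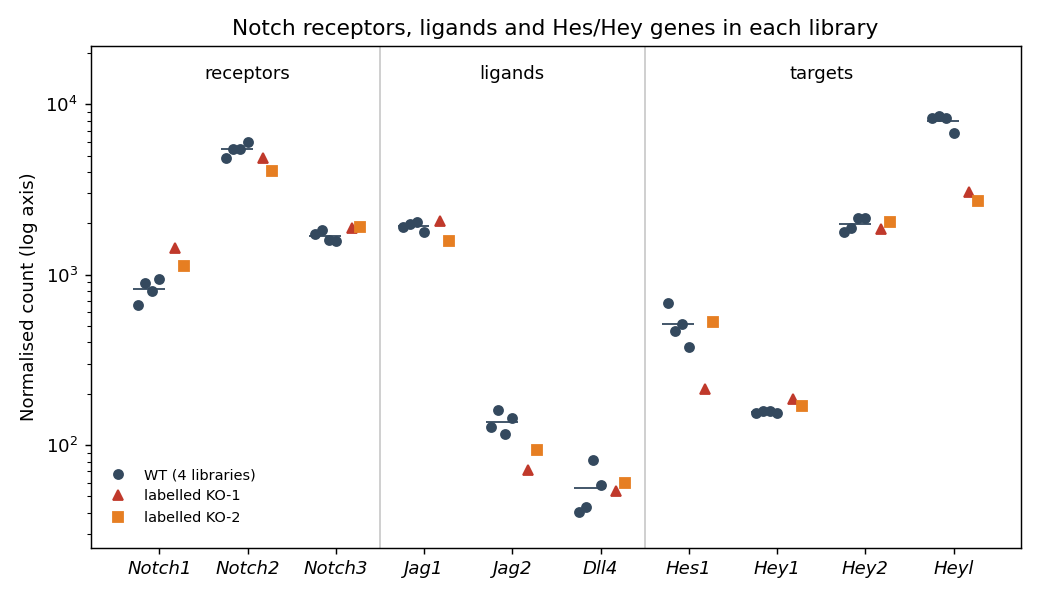
Normalised counts (counts divided by DESeq2 size factors, log axis) of the 10 genes in each library, with circles for the 4 WT libraries, a triangle and a square for KO-1 and KO-2, and a bar at the WT mean. Heyl lies at 6793 to 8485 in WT and at 3070 and 2692 in the KO libraries, while the Hes1 values of the KO libraries, 212.5 and 528.5, lie far apart.

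The first group, the receptors, held 1 call among 3 genes (33.3%, beside 10.4% of all genes). Notch1 (ENSMUSG00000026923.15, GRCm38 chromosome 2, 26457903 to 26516663, minus strand), a receptor known above all from endothelium and lymphocytes, had normalised counts of 660.1, 890.0, 796.9 and 948.1 in WT (WT-1 to WT-4, in order, here and below) and of 1439 and 1126 in KO-1 and KO-2. Both KO libraries lay above all WT libraries. The mean was 823.8 ± 125.6 (SD, n = 4) for WT against 1282 ± 221.1 (SD, n = 2) in KO, a log2 fold change of 0.64 ± 0.22 (SE, 95% interval 0.22 to 1.06, adjusted p = 0.0338 in DESeq2). The call rested on the choice of test, since edgeR's quasi-likelihood test gave an adjusted p-value of 0.0856. It was also lost without WT-1 (0.0798), WT-2 (0.0674), WT-3 (0.0858) or KO-1 (0.249), and 8 of 17 alternative fits kept it, with adjusted p-values from 0.00548 to 0.718.

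Part of the endothelial markers moved with Notch1. The 12 endothelial markers summed to 18410 to 29080 normalised counts in WT and to 37950 and 37200 in the KO libraries, 1.53 and 1.5 times the WT mean. Of these markers 4 passed the DESeq2 test (Kdr, Cdh5, Vwf and Tie1), all higher. They made up 33.3% of the list, beside 10.4% of all genes tested. No marker of the list was at 0 in any library, and the median log2 fold change of the 12 was 0.51. The list did not move as one, with both KO libraries above WT for 6 markers, below WT for 2 (Erg, log2 fold change -0.57, and Egfl7, -0.48, neither past the adjusted p-value) and not apart from WT for the other 4, which include Eng (0.05) and Esam (-0.08). Scaled to these markers instead of to all genes, the log2 fold change of Notch1 was 0.13 (adjusted p = 0.718 in DESeq2). That scaling moved the median log2 fold change of all genes by -0.54, so its values are relative to the markers only, and SMC marker scaling moved it by 0.10. The SMC markers, none of whose 9 genes passed the adjusted p-value (4 had an unadjusted p under 0.05), summed to 0.906 and 1.07 times the WT mean. Scaled to these, the log2 fold change of Notch1 was 0.75 and passed the test.

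Notch2 (ENSMUSG00000027878.11, chromosome 3, 98013527 to 98150361, plus strand), the most abundant receptor per length, had normalised counts of 4854, 5486, 5492 and 5975 in WT and 4850 and 4050 in the KO libraries. Both KO libraries lay below the WT range, the first by only a few counts. Its log2 fold change was -0.29 (95% interval -0.62 to 0.04, adjusted p = 0.307 in DESeq2). Scaled to endothelial markers, it was -0.81 and passed the test (DESeq2 adjusted p-value 0.011). That scaling moved the median log2 fold change of all genes by -0.54 and called 23.5% of them. The Notch2 call under it is therefore relative to the markers only.

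Notch3 (ENSMUSG00000038146.7, chromosome 17, 32120820 to 32166852, minus strand), the receptor best known from vascular SMCs, had normalised counts of 1740, 1830, 1601 and 1579 in WT and 1874 and 1913 in the KO libraries. The groups did not overlap, but the gap was narrow. Its log2 fold change was 0.17 (95% interval -0.15 to 0.48, adjusted p = 0.611 in DESeq2), and it was -0.39 when scaled to endothelial markers. Of 17 alternative fits, only that with a GC content trend taken out of each library called Notch3, with a log2 fold change of 0.45 and an adjusted p-value of 0.0137.

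Receptor make-up was compared per length, as shares of the summed normalised counts per kilobase of the longest protein-coding transcript. The sum holds Notch1, Notch2 and Notch3 only, and Notch4 was left out. Notch1 took 9.29% to 11.5% of the receptor level in WT, and 17.9% and 16.0% in the KO libraries. Notch2 took 61.7% to 65.7% in WT, and 54.5% and 51.9% in the KO libraries. Notch3 took 22.7% to 29% in WT, and 27.6% and 32.1% in the KO libraries. For Notch1 and Notch2 the groups did not overlap, while for Notch3 they did. With the length of all exons in place of the longest transcript, the Notch1 share was 6.52% to 8.16% in WT, and 12.9% and 11.4% in the KO libraries, again without overlap. These shares are a description and were not tested.

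**Figure D2:**
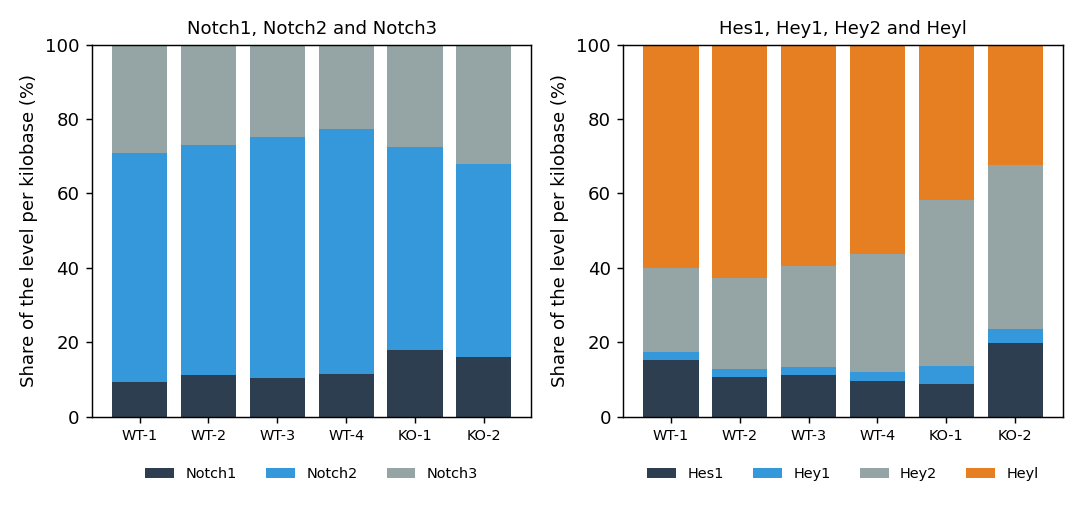
Stacked bars give, for each library, the share (%) of the summed level per kilobase of the longest protein-coding transcript taken by each of the 3 receptors (left) and of the 4 targets (right). The Heyl share is 56.3% to 62.6% in the WT libraries and 41.7% and 32.5% in the KO libraries, and the Notch1 share is 9.29% to 11.5% and 17.9% and 16.0%.

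None of the 3 ligands passed the DESeq2 adjusted p-value, and edgeR called 0 of them too, while 1 had an unadjusted DESeq2 p under 0.05. Jag1 (ENSMUSG00000027276.7, chromosome 2, 137081456 to 137116644, minus strand), the Jagged ligand of SMCs and endothelium, had normalised counts of 1900, 1990, 2033 and 1771 in WT and 2079 and 1584 in the KO libraries. KO-1 was the highest of the 6 and KO-2 the lowest. The log2 fold change was -0.07 (95% interval -0.43 to 0.29, adjusted p = 0.88 in DESeq2), so that a 2-fold change in either direction lies outside the interval.

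Jag2 (ENSMUSG00000002799.6, chromosome 12, 112907819 to 112929776, minus strand), a second Jagged ligand at a low level in this tissue, had normalised counts of 128.5, 160.7, 115.8 and 144.1 in WT and 71.33 and 93.42 in the KO libraries. Both KO libraries lay below all WT libraries, with a mean of 60% of that in WT. The log2 fold change was -0.75 ± 0.32 (SE, 95% interval -1.38 to -0.11), with an unadjusted p of 0.0207 and an adjusted p of 0.129 in DESeq2. Of the 17 alternative fits, it passed only when scaled to endothelial markers (log2 fold change -1.29, DESeq2 adjusted p-value 0.00961). That scaling moved the median log2 fold change of all genes by -0.54 and called 23.5% of them. The Jag2 call under it is therefore relative to the markers only.

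Dll4 (ENSMUSG00000027314.6, chromosome 2, 119325784 to 119335962, plus strand), the Delta-like ligand of arterial endothelium, had normalised counts of 40.64, 43.11, 81.89 and 58.47 in WT and 53.87 and 60.23 in the KO libraries. The groups overlapped and WT libraries spread by 33.8% of their mean. The log2 fold change was 0.02 (95% interval -0.88 to 0.92, adjusted p = 0.986 in DESeq2). This interval is wide enough to hold changes of close to 2-fold either way, so no change was detectable in these libraries. Scaled to the endothelial markers, its log2 fold change was -0.47 and did not pass the test. Among these 3 ligands alone, shares per length were dominated by Jag1 in both groups, at 87.8% to 90.4% in WT and at 92.9% and 89.1% in the KO libraries. Dll1, described below, was left out of these shares. Its mean was 110.3 normalised counts in WT and 272.7 in KO, for a longest transcript of 3581 bases. Jag2 had 137.3 in WT for 5106 bases, so the shares do not describe all Notch ligands.

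Among the 4 targets, Heyl alone was called (25%, beside 10.4% of all genes). Heyl (ENSMUSG00000032744.4, chromosome 4, 123233556 to 123249875, plus strand), a basic helix-loop-helix repressor abundant in vascular SMCs, had normalised counts of 8318, 8485, 8312 and 6793 in WT and 3070 and 2692 in the KO libraries. The lowest WT library stood more than 2-fold above either KO library. The mean was 7977 ± 793.3 (SD, n = 4) for WT against 2881 ± 267.4 (SD, n = 2) in KO, a log2 fold change of -1.47 ± 0.17 (SE, 95% interval -1.80 to -1.13, adjusted p = 3.23e-15 in DESeq2). Taken singly, KO-1 and KO-2 had log2 differences from the WT mean of -1.38 and -1.57. All 17 alternative fits called Heyl lower, with log2 fold changes from -2.02 to -1.33 and adjusted p-values from 2.59e-20 to 0.00332, the last from edgeR.

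Hes1 (ENSMUSG00000022528.7, chromosome 16, 30064384 to 30067796, plus strand), the founding target of the pathway, had normalised counts of 685.4, 467.0, 512.3 and 375.9 in WT and 212.5 and 528.5 in the KO libraries. KO-1 was the lowest of the 6 and KO-2 lay within the WT range. The log2 fold change was -0.47 ± 0.35 (SE, 95% interval -1.15 to 0.22, adjusted p = 0.472 in DESeq2). Without KO-2 it was -1.25 with an adjusted p-value of 0.00858, and without KO-1 it was 0.05, so that KO-1 alone carried the lower mean.

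Hey1 (ENSMUSG00000040289.8, chromosome 3, 8663359 to 8667256, minus strand), a Hey repressor known from arterial endothelium, had normalised counts of 154.9, 159.0, 157.8 and 153.5 in WT and 185.9 and 169.6 in the KO libraries. WT libraries spread by only 1.62% of their mean, and both KO libraries lay above them. Such a position outside the WT range was found in 34.3% of all genes tested. DESeq2 draws the spread of a gene partly from genes of like abundance. The log2 fold change of 0.19 had a 95% interval of -0.32 to 0.69 and an adjusted p of 0.743 in DESeq2. The edgeR test did not call Hey1 either (adjusted p-value 0.57).

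Hey2 (ENSMUSG00000019789.9, chromosome 10, 30832359 to 30842801, minus strand), the Hey repressor of arterial identity and of SMCs, had normalised counts of 1772, 1868, 2142 and 2153 in WT and 1850 and 2050 in the KO libraries. Both KO libraries lay inside the WT range. The log2 fold change was -0.03 (95% interval -0.37 to 0.32, adjusted p = 0.956 in DESeq2). The 95% intervals of Hey2 and Heyl did not overlap, and the difference between the genes was not tested.

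**Figure D3:**
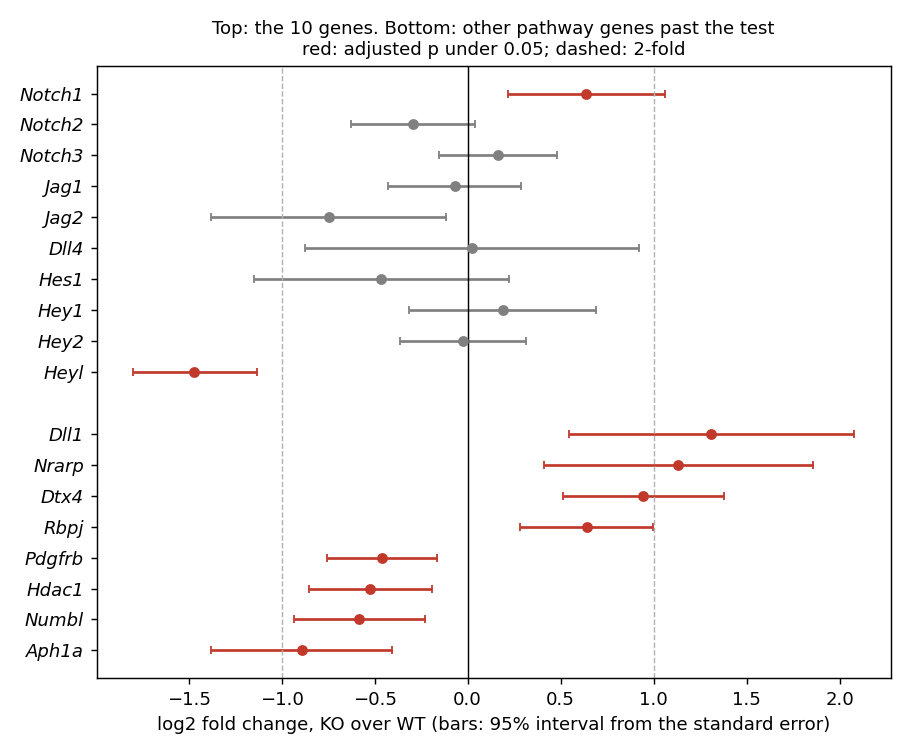
Log2 fold changes of the KO libraries over WT from DESeq2, with 95% intervals from the standard error, for the 10 genes (top) and other pathway genes that passed the adjusted p-value (bottom); red marks adjusted p-values under 0.05 and dashed lines 2-fold. Heyl, at -1.47, is the only one of the 10 whose interval lies wholly past 2-fold, and Notch1, at 0.64, the only other called.

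Levels can be ordered across the 10 genes only per length. In WT the order of normalised counts per kilobase of the longest protein-coding transcript (the length used unless another is named) was Heyl (1758 ± 174.8, SD, n = 4), Hey2 (777.9 ± 75.8), Notch2 (519.2 ± 43.77), Hes1 (347.5 ± 88.48), Jag1 (342.8 ± 20.65), Notch3 (210.5 ± 14.84), Notch1 (86.82 ± 13.24), Hey1 (64.5 ± 1.043), Jag2 (26.89 ± 3.807) and Dll4 (14.95 ± 5.06). Neighbours in this order had separate WT ranges except for Notch2 with Hes1 and Hes1 with Jag1. In the KO libraries, Hey2, at 725.5 and 804.0 per kilobase, stood above Heyl, at 676.7 and 593.3. This order depended on the length used. Per kilobase of all exons, Heyl stayed above Hey2, at 600.4 and 526.5 in KO-1 and KO-2 against 402.8 and 446.4. On that scale Notch2 (505.6) also came before Hey2 (431.9) and Jag1 (330.1) before Hes1 (250.4) in the WT means, and the WT ranges of Notch1 and Hey1 overlapped. As a share of the 4 targets per length, Heyl took 56.3% to 62.6% in WT, and 41.7% and 32.5% in the KO libraries. Hey2 took 22.7% to 31.7% in WT, and 44.7% and 44.0% in the KO libraries, and Hey1 took 2.09% to 2.38% and then 4.73% and 3.83%. Per length of all exons, the Heyl share was 65.5% to 70.8% in WT, and 51.6% and 41.0% in the KO libraries, and the Hey2 share 16.1% to 23.1%, and 34.6% and 34.8%, again without overlap. The Hes1 shares overlapped, at 9.62% to 15.3% in WT, and 8.91% and 19.7% in the KO libraries. Shares of a library add up to the whole, so a lower Heyl share by itself raises the others. The level of Hey2 per kilobase was 694.8 to 844.3 in WT, a range that held both KO libraries. Neither Hey2 nor Hey1 passed the test on levels. The target shares are a description and were not tested.

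Genes that overlap the members held few counts of their own, and reads shared between genes were not measured. Jag1, Hes1, Hey1, Hey2 and Heyl overlap no other gene of the annotation. Notch1 overlaps the antisense transcript 0610009E02Rik, which held 9 to 25 counts per library, and Notch2 overlaps the same-strand transcripts Gm42819 (7 to 31 counts) and Gm42820 (10 to 48 counts). The transcripts within Notch3, Jag2 and Dll4 held at most 8 counts in any library.

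The rest of the pathway was read from a list of 55 further genes, of which 51 had an adjusted p-value and 4 (Dll3, Dlk2, Hes5 and Helt) held at most 3 counts in every library. The DESeq2 test called 9 of the 51 (17.6%), 4 higher and 5 lower, and 2 of these past 2-fold, beside 10.4% and 5.64% of all genes. Their median log2 fold change was 0.05. In 22 of the 51 both KO libraries lay outside the WT range, beside 34.3% of all genes. The count of 9 rested on the test, the scaling and a single library. The edgeR test called 2 (Rbpj and Dtx4), beside 6.18% of all genes. Scaling to endothelial or to SMC markers gave 18 and 4, beside 23.5% and 9.5% of all genes. DESeq2 without WT-2 called 4, beside 7.39%. The share over all genes thus moved with these settings as well. Relative to the endothelial markers, the log2 fold changes of the 4 higher genes were 0.84 for Dll1, 0.13 for Rbpj, 0.66 for Nrarp and 0.42 for Dtx4. None of these passed (DESeq2 adjusted p-values 0.108 to 0.7), while all 5 lower genes were called. That scaling moved the median log2 fold change of all genes by -0.54, which by itself pulls higher genes towards 0 and lower genes further down. The calls kept and lost are therefore no separate check on these genes.

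Among the other receptor and ligands, Dll1, a Delta-like ligand, rose. Its normalised counts were 77.99, 88.91, 145.8 and 128.4 in WT and 373.3 and 172.1 in the KO libraries. The groups did not overlap, but KO-1 lay more than 2-fold above KO-2. The log2 fold change was 1.31 ± 0.39 (SE, adjusted p = 0.0121 in DESeq2, edgeR 0.0761). Notch4, a receptor of endothelium, had 79.09, 189.5, 202.7 and 239.1 in WT and 349.8 and 265.5 in the KO libraries. Both KO libraries were above WT, with a log2 fold change of 0.79 (95% interval 0.04 to 1.55) that did not pass after adjustment (adjusted p = 0.197 in DESeq2).

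None of the 5 glycosyltransferases that modify the receptors passed the DESeq2 adjusted p-value, and none had an unadjusted p under 0.05. Lfng (Lunatic Fringe), which adds sugars that bias receptors towards Delta-like ligands, had 130.7, 128.4, 177.8 and 190.0 in WT and 173.0 and 247.1 in the KO libraries. The groups overlapped, with a log2 fold change of 0.42 (95% interval -0.19 to 1.02, adjusted p-value 0.462). None of the 4 genes of ligand endocytosis passed the DESeq2 adjusted p-value, 1 having an unadjusted p under 0.05.

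Of the 10 genes of receptor cleavage, 1 passed (10%), a share near the 10.4% of all genes tested. Aph1a, a subunit of γ-secretase, fell from 772.2, 719.3, 503.3 and 756.0 in WT to 424.9 and 314.7 in the KO libraries. The groups did not overlap, and the log2 fold change was -0.89 ± 0.25 (SE, adjusted p = 0.00616 in DESeq2, edgeR 0.0563).

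Of the 8 genes of the nuclear complex, 1 passed (12.5%), a share near the 10.4% of all genes tested. Rbpj, the DNA-binding protein through which all Notch receptors act, had normalised counts of 2000, 2249, 2618 and 2577 in WT and 3923 and 3434 in the KO libraries. Both KO libraries lay above the WT range, by a log2 fold change of 0.64 ± 0.18 (SE, adjusted p = 0.00785 in DESeq2, edgeR 0.0458). Of the 17 alternatives, 13 kept the call, and the lowest log2 fold change was that scaled to endothelial markers. The Rbpj promoter stretch printed above holds TGGGAA and its reverse once each.

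Among the corepressors that act with RBPJ and Hes or Hey proteins, Hdac1, a histone deacetylase, fell, with a mean of 2074 ± 59.5 (SD, n = 4) in WT against 1444 ± 217.8 (SD, n = 2) in KO and a log2 fold change of -0.52 (adjusted p = 0.0235 in DESeq2, edgeR 0.0557). The groups did not overlap.

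Among 9 inhibitors and turnover factors 3 passed (33.3%, beside 10.4% of all genes), 2 of them higher. Nrarp, a feedback inhibitor induced by Notch itself, had 77.99, 192.2, 159.8 and 161.8 in WT and 400.6 and 248.3 in the KO libraries, a log2 fold change of 1.13 ± 0.37 (SE, adjusted p = 0.0256 in DESeq2, edgeR 0.098). Dtx4, a Deltex ubiquitin ligase, had 318.5, 321.5, 301.6 and 379.0 in WT and 717.8 and 551.9 in the KO libraries, a log2 fold change of 0.95 ± 0.22 (SE, adjusted p = 0.00062 in DESeq2, edgeR 0.0219). In both genes the 2 KO libraries were above WT. Numbl, a homologue of the Notch inhibitor Numb, fell, with a mean of 1567 ± 169.6 (SD, n = 4) in WT against 1048 ± 9.62 (SD, n = 2) in KO and a log2 fold change of -0.58 (adjusted p = 0.0167 in DESeq2, edgeR 0.0537).

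Of 4 tested genes among the other Hes genes and targets, 1 passed (25%, beside 10.4% of all genes). Pdgfrb, a growth factor receptor of mural cells that is known to respond to Notch, fell, with a mean of 12010 ± 868.1 (SD, n = 4) in WT against 8744 ± 15.92 (SD, n = 2) in KO and a log2 fold change of -0.46 (adjusted p = 0.0285 in DESeq2, edgeR 0.0568). The KO libraries, at 8733 and 8755, lay below all WT libraries.

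Genes with a pattern most like those of Heyl and Notch1 were looked up among 11435 genes that averaged at least 100 normalised counts, by Pearson's r of log2(normalised count + 0.5) over the 6 libraries. These r describe likeness only, since they rest on 6 libraries whose groups stand apart and are the highest of all genes searched. For Heyl the genes most alike were Pbxip1 (r = 0.9995), Pcsk5 (r = 0.9981) and 1700120C14Rik (r = 0.9974). All 3 were lower in the KO libraries, with log2 fold changes of -0.42, -1.10 and -2.26 (DESeq2 adjusted p-values 0.0279, 1.12e-07 and 1.41e-07). For Notch1 they were Prkx (r = 0.9949), Nos3 (r = 0.9933) and Rbm45 (r = 0.9933), none of which passed the test. Nos3, the nitric oxide synthase of endothelium, had 1121.5, 1315.6, 1237.3 and 1445.1 in WT and 1963.7 and 1590.5 in the KO libraries, a log2 fold change of 0.47 (adjusted p = 0.0905 in DESeq2).

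**Figure D4:**
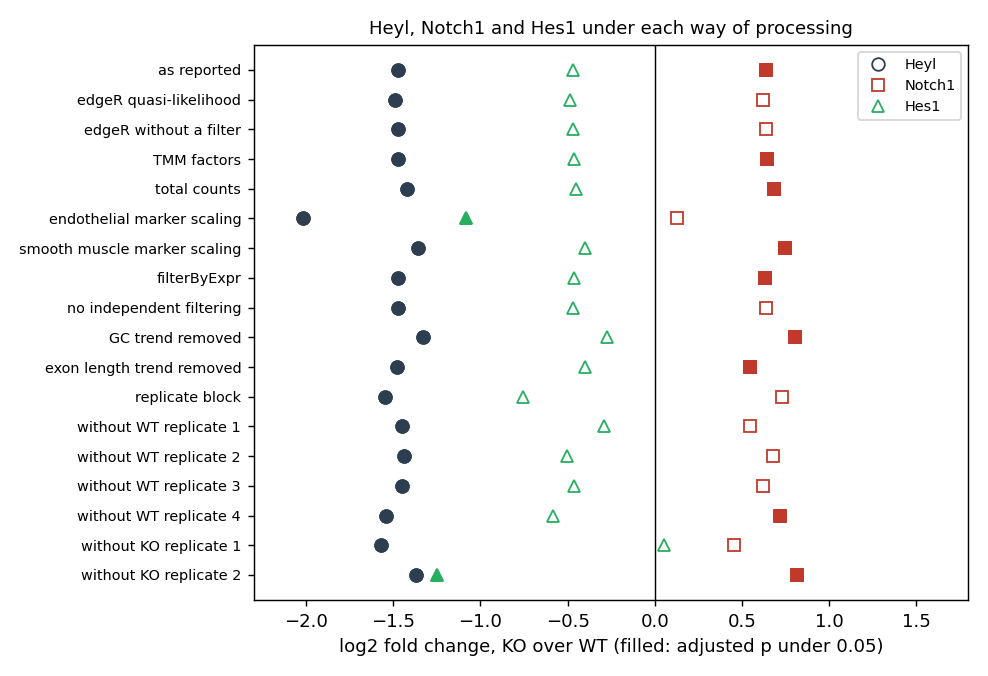
Log2 fold changes of Heyl, Notch1 and Hes1 as reported and under each of 17 alternative ways of processing, 1 line each; filled symbols mark an adjusted p-value under 0.05. Heyl stays between -2.02 and -1.33 and is filled throughout, Notch1 is open in 9 lines, and Hes1 is filled in 2 and lies just above 0 without KO-1.

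Other tissue differed between the groups as well. The 8 macrophage markers summed to 1.53 and 1.76 times the WT mean in KO-1 and KO-2, and 6 of them passed the test, all higher. Calls in this and the following lists stand beside 10.4% of all genes tested. Of the 4 lymphatic endothelial markers, which summed to 1.68 and 2.21 times the WT mean, all passed, 3 higher and 1 lower. Cardiac muscle markers summed to 18.1 times the WT mean in KO-1 and 1.97 times in KO-2, with Nppa at 0 in at least 1 library. Brown adipocyte markers summed to 1.36 and 23.3 times, with Ucp1 and Elovl3 at 0 in at least 1 library, and white adipocyte markers to 1.76 and 8.71 times. Mesothelial markers summed to 2.68 and 6.92 times, with Krt8 at 0 in at least 1 library, and red blood cell markers to 4.06 and 22.1 times. Fibroblast markers summed to 1.29 and 0.952 times, but 2 of the 7 passed the test, both higher (Lum, log2 fold change 0.997, and Dpt, 0.57), and in 4 both KO libraries were above WT and in 0 below. Their median log2 fold change was 0.39, and the sum was dominated by Gsn, at 23700 in KO-2 against a WT mean of 41080. Schwann cell markers summed to 1.44 and 1.13 times. Lymphocyte markers summed to 1.93 and 8.53 times from at most 57.12 normalised counts in WT. The part of these cells in the results for Notch genes was not tested.

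**Figure D5:**
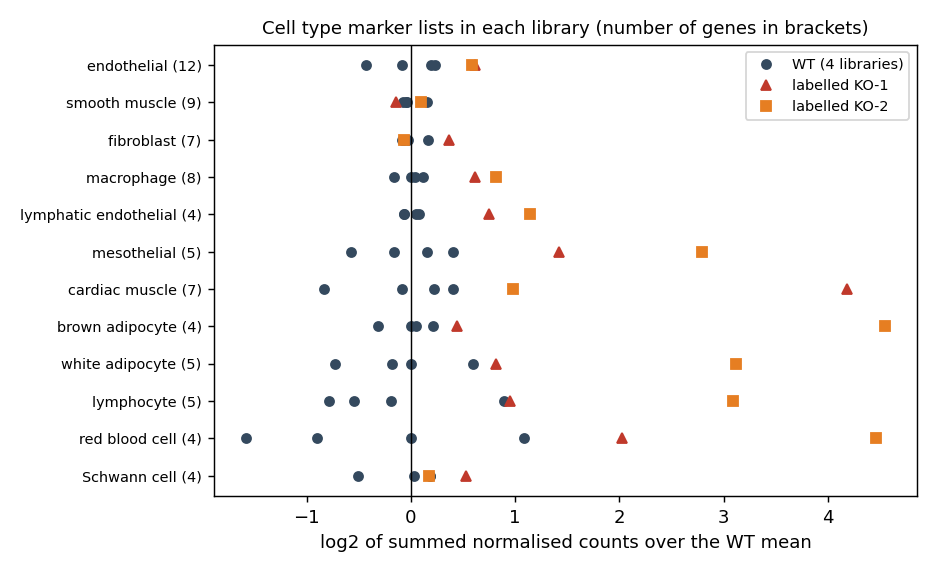
Log2 of the summed normalised counts of 12 cell type marker lists (number of genes in brackets) over the WT mean, with circles for WT libraries and a triangle and a square for KO-1 and KO-2. Endothelial markers lie at 1.53 and 1.5 times the WT mean in the KO libraries, SMC markers at 0.906 and 1.07 times, and cardiac and fat markers stand out in 1 library each.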

How the data were processed

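The deposited values are estimated counts, whole numbers per gene that were not scaled for depth. Per the study's methods and the labels, the authors used Trim Galore for trimming, HISAT2 for mapping to GRCm38 and StringTie with GENCODE M15 models for quantification. How coverage became counts, and whether strand was used, is not given in the sources used here. Gene positions came from GENCODE M21 on GRCm38, which matched 52489 of 52636 identifiers, and 0 columns went unused. KO (2 libraries, by label) was set against WT (4 libraries) by the Wald test of DESeq2 1.42.0 (R 4.3.3), with no covariate, an adjusted p-value under 0.05 and a 2-fold threshold. The 17 alternatives were edgeR 4.0.16 with and without a low-count filter, TMM or total-count scaling, marker scaling, other filters, GC and length trends, a replicate block and leaving out each library. Calculations were tested on simulated data. Intervals are 95% from the standard error, and the floor is 3 counts. The members and lists were chosen with earlier results of these data known. By rule the text names the 10 genes, the other pathway genes past the test (up to 12), Notch4, Dll1, Lfng, Rbpj and Nrarp, and the 3 genes most like each of Heyl and Notch1. A gene that this rule selects is not reported here. Replicate numbers were not taken as pairs, as only 2 are shared and nothing says what they mark.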

Additional observations from a re-analysis of the deposited data

Results flagged for a closer look

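A value far from the other WT libraries was found in 3 of 33 sets of 4 WT values checked, and chance gives about 1 in 20, or 1.65 of 33. The normalised count of Heyl was 6793 in WT-4 and 8312 to 8485 in the other WT libraries, so that 0.898 of the WT range lay between the lowest and the next. Without WT-4, Heyl was still called lower. The normalised count of Hdac1 was 1985 in WT-4 and 2094 to 2111 in the others (0.865 of the range). The summed level of the smooth muscle markers was 1072000 in WT-3 and 912600 to 937700 in the others (0.843 of the range).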

How the results depend on the processing

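Heyl was called lower in all 17 alternatives, and Notch1 was called in 8. The count of called genes among the 10, 2 as reported, was 1 with edgeR, 1 with edgeR without a filter, 1 without independent filtering and 4 with endothelial marker scaling, which added Notch2, Jag2 and Hes1 and lost Notch1. Leaving out 1 WT library at a time gave 1 to 2, beside 7.39% to 10.3% of all genes. With the 2-fold threshold added, the count was 1 as reported, beside 962 of all genes, and 3 with endothelial marker scaling, beside 2019. It was 1 with any 1 WT library left out, beside 799 to 913 of all genes. The count of the other pathway genes, 9 as reported, was 2 with edgeR, 1 with edgeR without a filter, 18 with endothelial marker scaling (5 of them among the 9) and 4 with smooth muscle marker scaling, and 4 to 9 with 1 library left out, the lowest without WT-2. Over all genes, 1775 were called as reported (10.4%), 996 with edgeR (6.18%) and 931 with edgeR without a filter (3.65%). Endothelial marker scaling called 3579 (23.5%) and smooth muscle marker scaling 1621 (9.5%), and 1273 (7.39%) were called without WT-2. Without independent filtering, 1543 (6.06%) were called. The causes of these differences were not tested.

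With the replicate number as a block, 1 of the 10 genes and 1 of the other pathway genes was called, the latter not among the 9. Over all genes, 628 (4%) were called with this block. The numbers 1 and 2 are shared by the groups, and the correlations of deviations of same-numbered libraries were -0.08 and 0.01. With 2 KO libraries, the deviations of KO-1 and KO-2 from their mean are mirror images. These correlations are therefore not separate checks and cannot decide on a pairing.

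Signs turned only in genes that did not pass. Endothelial marker scaling gave log2 fold changes of -0.386 for Notch3, -0.474 for Dll4 and -0.349 for Hey1, and moved the median of all genes by -0.54. Smooth muscle marker scaling gave 0.0443 for Jag1 and 0.0724 for Hey2, and Hey2 was 0.0104 with total counts and 0.0983 with the replicate block. With 1 library left out, Jag1 ran from -0.278 to 0.123, Dll4 from -0.1 to 0.265, Hes1 from -1.25 to 0.0541 (without KO-2 and KO-1) and Hey2 from -0.0899 to 0.0495. With 2 KO libraries, the 95% intervals of Dll4, Hes1, Jag2 and Hey1 were the widest of the 10, with standard errors of 0.46, 0.35, 0.32 and 0.26.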
